A study of Homo sapiens with 11 samples.

Results

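The genes described here are the Staufen paralogs STAU1 and STAU2 and 7 factors of nonsense-mediated decay, UPF1, UPF2, UPF3A, UPF3B, SMG1, SMG5 and SMG6. They were chosen by symbol, and all 9 were found among the 58699 genes of the table. Total RNA was taken from the colorectal cancer line HCT116. Control cells carried an siRNA to luciferase (siLuc) and knockdown cells an siRNA to Staufen1 (siStau1). Each was treated with decitabine (DAC), which blocks DNA methylation, at 500 nM over 5 days, or with its solvent DMSO. The 4 groups had 2 libraries each. The authors deposited 1 FPKM value per gene and group, a level scaled to transcript length and library size, so no spread between libraries can be given and their depth is unknown. A gene is called changed where the q-value of the authors' deposited table, a p-value adjusted over all genes and comparisons, was under 0.05. Log2 ratios were computed here after adding 0.1 to each FPKM. The labels do not say whether the libraries came from separate cultures. All cells, controls included, were transfected with an siRNA, and no untransfected group was analysed here.

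Of 8 markers of colon epithelium, 6 had at least 1 FPKM in every group, namely KRT8, KRT18, KRT19, EPCAM, CDH1 and CDX2, while VIL1 and CEACAM5 lay below it. Of 8 markers of other cells, at most 2 reached 1 FPKM in any group. Their summed FPKM lay between 1.04 and 2.06 in the DMSO groups and between 9.68 and 12.2 in the DAC groups, and its part in the results was not tested.

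Nonsense-mediated decay (NMD) removes mRNAs on which translation ends too early, and it also sets the level of many intact mRNAs. The helicase UPF1 binds the mRNA, UPF2 bridges it to UPF3A or UPF3B, which contact the exon junction complex, and the kinase SMG1 phosphorylates UPF1. Phosphorylated UPF1 then recruits the endonuclease SMG6 or the adaptor SMG5. Staufen proteins bind double-stranded stretches of RNA and can recruit UPF1 to mRNAs that carry them in the 3′ untranslated region, a route called Staufen-mediated decay.

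The members differed in base composition, and the results below are read against it. The GC content of the longest transcript was 36.3% for STAU2, 40.3% for UPF2, 41.8% for both UPF3A and UPF3B, 43.2% for SMG1, 47.0% for STAU1, 55.3% for SMG6, 57.6% for SMG5 and 60.5% for UPF1, against a median of 49.1% over protein-coding genes. At the last position of codons the span was wider, from 35.4% in STAU2 to 80.0% in UPF1. Within UPF3A the coding part held 53.2% GC, above its whole transcript. The middle 120 bases of the coding sequence are shown for a member of high GC content (UPF1), for a member called higher with DAC in both arms (SMG5), for the member called lower in both (UPF3B), and for SMG1, which with DAC in siLuc lay furthest from genes of like GC content. Sequences are from GENCODE release 29, 5′ to 3′, with G and C in capitals.
UPF1: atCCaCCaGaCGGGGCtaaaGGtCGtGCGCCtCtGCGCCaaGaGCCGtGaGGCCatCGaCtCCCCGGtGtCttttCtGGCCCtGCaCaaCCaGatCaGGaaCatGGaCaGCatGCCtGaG
SMG5: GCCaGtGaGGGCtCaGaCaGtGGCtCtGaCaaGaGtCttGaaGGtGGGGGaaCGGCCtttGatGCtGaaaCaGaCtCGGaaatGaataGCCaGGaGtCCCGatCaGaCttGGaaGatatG
SMG1: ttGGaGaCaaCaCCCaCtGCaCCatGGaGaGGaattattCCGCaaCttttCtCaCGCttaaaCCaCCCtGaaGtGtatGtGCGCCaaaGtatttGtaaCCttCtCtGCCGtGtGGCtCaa
UPF3B: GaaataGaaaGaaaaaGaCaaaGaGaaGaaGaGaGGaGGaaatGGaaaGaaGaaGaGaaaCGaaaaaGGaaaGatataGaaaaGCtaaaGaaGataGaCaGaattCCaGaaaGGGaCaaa
These windows held 73 G or C bases in UPF1, 63 in SMG5, 57 in SMG1 and 40 in UPF3B.

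DNA methyltransferases, the enzymes that DAC traps, mainly methylate cytosines followed by guanine, so the promoters of 2 members called in opposite directions with DAC are shown with each such CG pair in capitals. They are the 250 bases before the start site in RefSeq (GRCh38.p14), SMG1 at chr16:18926409-18926658 and UPF3B at chrX:119852964-119853213, both on the minus strand and written 5′ to 3′ along the gene.
SMG1: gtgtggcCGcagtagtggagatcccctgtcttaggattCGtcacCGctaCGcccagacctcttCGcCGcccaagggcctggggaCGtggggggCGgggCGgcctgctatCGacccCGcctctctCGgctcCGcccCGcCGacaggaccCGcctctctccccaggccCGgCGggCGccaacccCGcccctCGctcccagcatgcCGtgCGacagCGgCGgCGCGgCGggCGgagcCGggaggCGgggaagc
UPF3B: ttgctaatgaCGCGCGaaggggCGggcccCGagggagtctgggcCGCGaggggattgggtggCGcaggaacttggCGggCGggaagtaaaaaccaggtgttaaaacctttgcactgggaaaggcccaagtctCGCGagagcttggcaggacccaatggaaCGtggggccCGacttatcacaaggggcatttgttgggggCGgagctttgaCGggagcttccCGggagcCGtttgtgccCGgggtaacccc
These stretches held 31 and 19 CG pairs. CG reads the same on both strands. In the RefSeq windows of 300 bases (250 before and 50 after the start), UPF1 had 45 pairs, UPF3A 43, SMG1 37, UPF3B 24 and UPF2 23, and the median of 35116 windows was 14. At least as many were found in 3.48% of windows for UPF1, 4.98% for UPF3A, 11.3% for SMG1, 33.9% for UPF3B and 35.8% for UPF2. For STAU1, SMG5 and SMG6 the RefSeq start lay 8691 to 66924 bases from the start of the gene in GENCODE, and their windows were not used. Methylation was not measured in these files.

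STAU1 (ENSG00000124214.19, chromosome 20, 49113339 to 49188367), the target of the knockdown, stood at 35.5 FPKM with DMSO and 33.7 with DAC in control siRNA cells, and at 30.0 and 27.1 in knockdown cells. Both groups labelled siStau1 lay below both siLuc groups. The relative difference from siLuc was −15.6% with DMSO and −19.6% with DAC, the log2 ratios were −0.24 and −0.31, and neither was called in the authors' deposited table (q-values 0.767 and 0.685). Among protein-coding genes at 1 FPKM or more in both groups, 30.9% had a lower log2 ratio than STAU1 with DMSO and 35.1% with DAC. STAU1 mRNA thus lay within the range of other genes, and protein was not measured in these files. The knockdown is therefore not shown by these data, and "knockdown" names the siStau1 label here. With DAC the STAU1 level differed little, with log2 ratios of −0.08 in siLuc and −0.15 in siStau1. It had the narrowest span of the 9 members, 1.31 times from lowest to highest group.

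STAU2, the paralog best known from RNA transport in neurons, stood at 27.9 FPKM with DMSO and 7.33 with DAC in control siRNA cells, and at 40.2 and 16.7 in knockdown cells. Both DAC groups lay below both DMSO groups. It fell with DAC in siLuc by 1.92 on the log2 scale (q-value 0.0383 in the authors' deposited table). In siStau1 the log2 ratio was −1.26 and was not called (q-value 0.333 there). In siStau1 the STAU2 level was 43.8% above siLuc with DMSO and 127.5% above it with DAC, with log2 ratios of 0.52 and 1.18 that were not called in the authors' deposited table (q-values 0.793 and 0.274). Protein-coding genes of like GC content had median log2 ratios of 0.42 with DMSO and 0.61 with DAC in the same comparisons, so part of each STAU2 ratio was shared with them.

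Because STAU1 differed little, the balance of the paralogs followed STAU2. FPKM is scaled to transcript length. On that scale STAU2 stood at 78.7% of the STAU1 level with DMSO and 21.8% with DAC in control siRNA cells, and at 134% and 61.5% in knockdown cells. STAU2 was thus above STAU1 in siStau1 DMSO and below it in the other groups. The paralogs differ in GC content (36.3% for STAU2 and 47.0% for STAU1), which ratios between groups followed, as described below. The part of GC content in this balance was not tested. The summed FPKM of the paralogs was 63.5 with DMSO and 41.0 with DAC in control siRNA cells, and 70.2 and 43.8 in knockdown cells, lower in both DAC groups than in either DMSO group. Another protein-coding gene, AC022826.2, overlaps STAU2 on the same strand. It had 1.84 and 2.78 FPKM in control siRNA cells (DMSO, then DAC) and 12.9 and 2.19 in knockdown cells, and how reads were divided between them is not given in the sources used here.

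**Figure D1:**
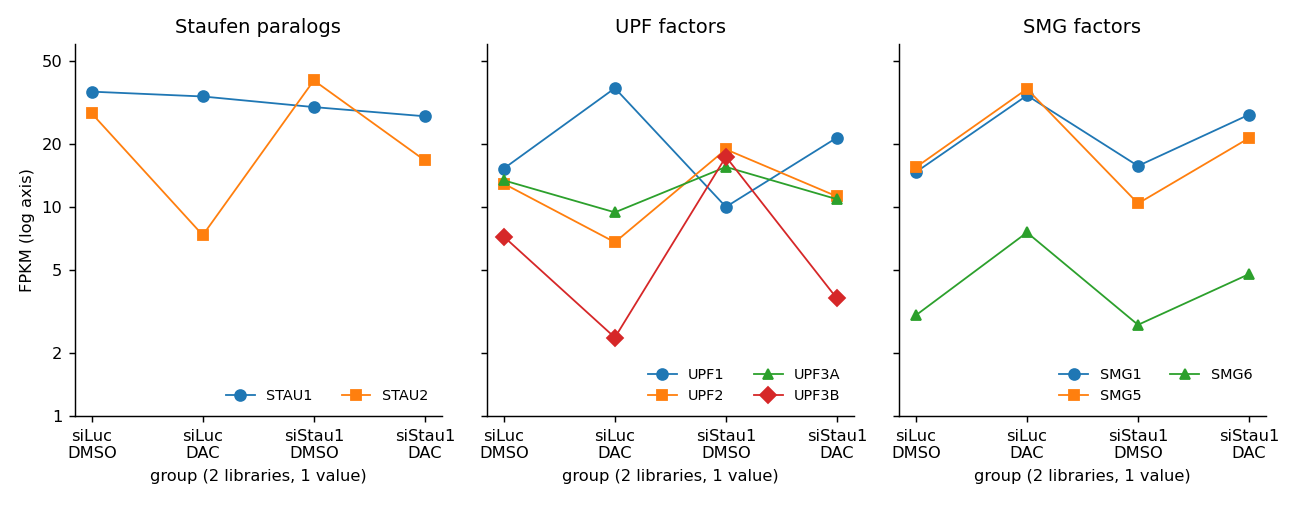
FPKM (log axis) of the 9 members in the 4 groups, each point the single deposited value of a group of 2 libraries. STAU1 is nearly level between 27.1 and 35.5 FPKM, while UPF1, SMG1, SMG5 and SMG6 are higher and STAU2, UPF2, UPF3A and UPF3B lower in both DAC groups than in the DMSO group of the same siRNA.

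UPF1 (ENSG00000005007.12, chromosome 19, 18831938 to 18868236), the helicase that both decay routes share, stood at 15.3 FPKM with DMSO and 36.9 with DAC in control siRNA cells, and at 10.002 and 21.4 in knockdown cells. Both DAC groups lay above both DMSO groups. The log2 ratio with DAC was 1.27 in siLuc and 1.09 in siStau1, and neither was called in the authors' deposited table (q-values 0.207 and 0.150, unadjusted p 0.0311 and 0.0189). SMG5 had log2 ratios close to these and was called, so the size of the ratio alone did not decide a call. With knockdown the UPF1 ratios were −0.60 in DMSO and −0.78 in DAC (q-values 0.610 and 0.468 in the authors' deposited table).

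UPF2 (chromosome 10, 11920022 to 12043170), the bridge between UPF1 and the UPF3 proteins, stood at 12.9 FPKM with DMSO and 6.78 with DAC in control siRNA cells, and at 18.8 and 11.2 in knockdown cells. Its log2 ratios with DAC were −0.92 in siLuc and −0.74 in siStau1, not called in the authors' deposited table (q-values 0.104 and 0.202). UPF2 stood at 84.6% of the UPF1 level with DMSO and 18.4% with DAC in control siRNA cells, and at 188% and 52.4% in knockdown cells, so these partners differed in opposite directions in all 4 comparisons. They also lie far apart in GC content (40.3% for UPF2 and 60.5% for UPF1), and its part in this balance was not tested.

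UPF3B (ENSG00000125351.11, chromosome X, 119805311 to 119852998), which links UPF2 to the exon junction complex, stood at 7.21 FPKM with DMSO and 2.38 with DAC in control siRNA cells, and at 17.4 and 3.65 in knockdown cells. Its highest group was 7.30 times its lowest, the widest span of the 9 members. UPF3B fell with DAC in both arms, with log2 ratios of −1.56 in siLuc and −2.22 in siStau1 (q-values 0.0418 and 0.00162 in the authors' deposited table, the second being the smallest value that table holds). With knockdown its log2 ratio was 1.26 in DMSO and 0.60 in DAC, not called in the authors' deposited table (q-values 0.106 and 0.594).

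UPF3A (chromosome 13, 114281584 to 114305817), the paralog of UPF3B with weaker activity in decay, stood at 13.4 FPKM with DMSO and 9.42 with DAC in control siRNA cells, and at 15.5 and 10.9 in knockdown cells. Its ratios had the sign of those of UPF3B in all 4 comparisons but were smaller, with log2 ratios of −0.50 and −0.51 for DAC, and no comparison was called in the authors' deposited table (q-values 0.638 to 0.891). After centring on genes of like GC content, the signs differed with DAC in siLuc (0.09 for UPF3A, −0.97 for UPF3B). They also differed with knockdown in DAC (−0.15 and 0.24), and stayed alike with DAC in siStau1 and with knockdown in DMSO. UPF3B stood at 53.8% of the UPF3A level with DMSO and 25.2% with DAC in control siRNA cells, and at 112% and 33.6% in knockdown cells. The 3 annotated UPF3A pseudogenes together had at most 1.09 FPKM in any group.

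SMG1 (ENSG00000157106.16, chromosome 16, 18804853 to 18926454), the kinase that phosphorylates UPF1, stood at 14.7 FPKM with DMSO and 34.1 with DAC in control siRNA cells, and at 15.7 and 27.6 in knockdown cells. Both DAC groups lay above both DMSO groups. SMG1 rose with DAC in siLuc by a log2 ratio of 1.21 (q-value 0.0194 in the authors' deposited table). In siStau1 the ratio was 0.81 and was not called (q-value 0.180 there). With knockdown the ratios were 0.10 in DMSO and −0.30 in DAC, neither called in the authors' deposited table (q-values 0.930 and 0.722). SMG1 was the only member whose knockdown ratio differed in sign between DMSO and DAC, but after centring on genes of like GC content SMG1 was below 0 in both (−0.03 and −0.55) and UPF3A and SMG6 differed in sign.

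The value of SMG1 is uncertain because chromosome 16 carries 7 annotated pseudogene copies of it, and how reads were shared among near-identical copies is not given in the sources used here. The copies together stood at 11.4 FPKM with DMSO and 34.9 with DAC in control siRNA cells, and at 12.4 and 23.5 in knockdown cells. This sum was 3.07 times as high with DAC in siLuc and 1.89 times in siStau1, beside 2.32 and 1.76 times for SMG1 itself. SMG1P3, the highest copy, stood at 4.29 FPKM with DMSO and 17.4 with DAC in control siRNA cells, and at 4.96 and 9.59 in knockdown cells. It was the only copy called with DAC in siLuc (q-value 0.0383 in the authors' deposited table). SMG1 and its copies taken as 1 sum were 2.65 and 1.82 times as high with DAC in siLuc and siStau1. Each FPKM is scaled to its own transcript length, so this sum too depends on how reads were divided.

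**Figure D2:**
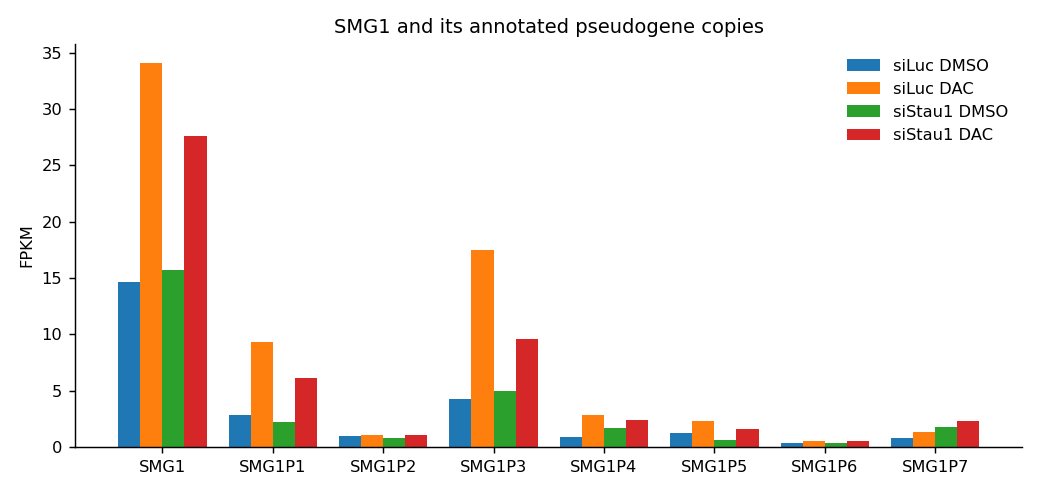
FPKM of SMG1 and its 7 annotated pseudogene copies in the 4 groups, each bar the single deposited value of a group of 2 libraries. With the control siRNA, SMG1 and all 7 copies have higher values with DAC than with DMSO, with SMG1P3 at 17.4 against 4.29 FPKM.

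SMG5 (ENSG00000198952.8, chromosome 1, 156249224 to 156282825), an adaptor that binds phosphorylated UPF1, stood at 15.5 FPKM with DMSO and 36.6 with DAC in control siRNA cells, and at 10.4 and 21.3 in knockdown cells. SMG5 rose with DAC in both arms, by log2 ratios of 1.24 in siLuc and 1.03 in siStau1 (q-values 0.00162 and 0.0343 in the authors' deposited table). With knockdown the ratios were −0.57 in DMSO and −0.78 in DAC, not called in the authors' deposited table (q-values 0.388 and 0.106). These group levels ran close to those of UPF1 in every group.

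SMG6 (chromosome 17, 2059839 to 2303771), the endonuclease of the pathway, was the lowest member by mean level, at 3.04 FPKM with DMSO and 7.55 with DAC in control siRNA cells, and at 2.73 and 4.78 in knockdown cells. Its log2 ratio with DAC in siLuc, 1.28, was the highest of the 9 members with the pseudocount of 0.1 but not with 1, where it was 1.08 and UPF1 was at 1.22, and it was not called in the authors' deposited table (q-value 0.527). The ratio was 0.78 in siStau1 (q-value 0.787 there). SMG6 stood between 19.6% and 26.3% of the SMG5 level in the 4 groups, so this pair kept a narrower balance than STAU2 to STAU1, UPF2 to UPF1 or UPF3B to UPF3A. The longest transcripts of SMG6 and SMG5 are alike in GC content (55.3% and 57.6%), as are those of UPF3B and UPF3A (both 41.8%). Those of STAU2 and STAU1 (36.3% and 47.0%) and of UPF2 and UPF1 (40.3% and 60.5%) are not. The part of GC content in these balances was not tested. The gene SRR overlaps SMG6 on the opposite strand, with 5.33 and 2.53 FPKM in control siRNA cells (DMSO, then DAC) and 10.5 and 2.35 in knockdown cells, and whether the counting used strand is not given in the sources used here.

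With DAC in siLuc, 4 of the 9 members were called in the authors' deposited table, SMG1 and SMG5 higher and STAU2 and UPF3B lower. Over all 17504 genes tested, 13.5% were called, 8.71% higher and 4.78% lower. In siStau1 2 members were called, SMG5 higher and UPF3B lower, against 7.46% of 16979 genes tested, 4.56% higher and 2.89% lower. All 9 members had the same sign in both arms, 4 higher and 5 lower with DAC. Their median was −0.08 on the log2 scale in siLuc and −0.15 in siStau1, beside 0.23 and 0.11 over all genes tested, so the set did not differ in 1 direction. UPF1, SMG1, SMG5 and SMG6 lay between 1.21 and 1.28 in siLuc, and STAU2, UPF2, UPF3A and UPF3B between −1.92 and −0.50.

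With knockdown none of the 9 members was called by Cuffdiff in the authors' deposited table in DMSO, where 0.799% of 15893 genes tested were (0.333% higher, 0.466% lower), or in DAC, where 0.904% of 17263 were (0.434% higher, 0.469% lower). At an unadjusted p under 0.05 there was 1 member in DMSO, UPF3B, against 4.3% of all genes tested, and 3 in DAC, STAU2, UPF2 and SMG5, against 6.95%. The largest ratios were 1.26 for UPF3B in DMSO and 1.18 for STAU2 in DAC. The knockdown and DAC comparisons share groups, so a high or low value in 1 group enters both. The median of all genes with at least 1 FPKM was itself −0.11 with knockdown in DAC. The combined comparison of siStau1 DAC with siLuc DMSO gave 0 called members in the authors' deposited table (4.98% of 16909 genes tested, 4.02% higher and 0.964% lower), with log2 ratios from −0.96 for UPF3B to 0.91 for SMG1 and 2 members at an unadjusted p under 0.05, against 13.6% of all genes tested.

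**Figure D3:**
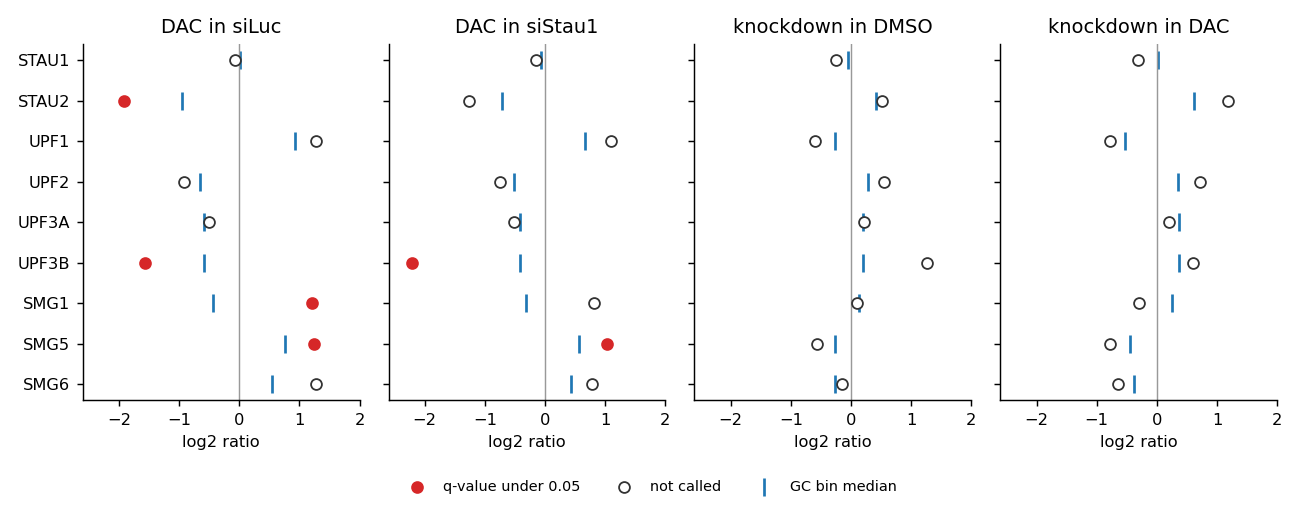
Log2 ratios of FPKM of the 9 members in 4 comparisons (DAC over DMSO within each siRNA, siStau1 over siLuc with each treatment), filled where the authors' q-value is under 0.05, with a bar at the median of protein-coding genes of like GC content. Filled points are 4 with DAC in siLuc, 2 with DAC in siStau1 and 0 with knockdown.

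The DAC log2 ratio of knockdown cells less that of control siRNA cells was largest for STAU2 (0.65) and UPF3B (−0.66), of opposite signs, with SMG6 at −0.50 and SMG1 at −0.40 and the other 5 between −0.21 and 0.18. After centring on genes of like GC content, the order changed. The differences were then −0.84 for UPF3B, −0.52 for SMG1, 0.43 for STAU2 and −0.39 for SMG6, with the other 5 between −0.18 and 0.09. The ratio was smaller in size in siStau1 for 6 of the 9 members and larger for STAU1, UPF3A and UPF3B. Protein-coding genes of the lowest GC content had a median of −0.95 in siLuc and −0.72 in siStau1. For those of the highest GC content the median was also smaller in siStau1, so this count does not set the members apart. After centring, UPF1 was larger in siStau1 (0.34 in siLuc, 0.43 in siStau1) and STAU1 smaller (−0.09 and −0.08). The other members kept their order between arms, SMG5 only narrowly. STAU2 was called in siLuc and not in siStau1, and SMG1 likewise, but the difference between arms was not tested, because the table holds no value per library.

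The members' ratios followed the GC content of their transcripts, as those of protein-coding genes did in general. Spearman's rho over the 9 members was 0.917 for DAC with the control siRNA and 0.900 with siStau1. It was −0.917 for knockdown with DMSO and −1 with DAC, where the order by ratio was the reverse of the order by GC content. Over 10953 to 11593 protein-coding genes at 1 FPKM or more in both groups, rho was 0.659, 0.624, −0.487 and −0.715 in the same order. These are descriptions across genes, which share their libraries and are not replicates. Members were set beside the median of protein-coding genes in the same of 20 bins of GC content, and the part of base composition in their ratios was not tested further.

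With DAC in siLuc, 6 of the 9 members lay further from 0 than their bin, on the same side, and in siStau1 8 did. By construction many genes lie further from 0 than the median of their bin. The share over all protein-coding genes is not given here, so these counts do not set the members apart. Some margins in siStau1 were small, as for STAU1 (−0.15 against −0.06 for its bin) and UPF3A (−0.51 against −0.41). SMG5, at 1.24 in siLuc, was 0.48 above its bin, and UPF1, at 1.27, was 0.34 above its bin. UPF3A, at −0.50 in siLuc, lay 0.09 above a bin median of −0.59. For these 3 members most of the ratio was shared with genes of like GC content. UPF3B was −0.97 from its bin in siLuc and −1.81 in siStau1, where 0.456% of protein-coding genes lay lower after centring. With knockdown in DMSO it was 1.06 above its bin, with 98.9% of genes lower. STAU2 was −0.97 from its bin with DAC in siLuc, about as far as the bin was from 0.

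SMG1 went against its GC content. Its bin had a DAC median of −0.44 in siLuc and −0.31 in siStau1, and SMG1 lay 1.65 and 1.12 above these, higher than 97.9% and 95.9% of protein-coding genes after centring. With knockdown in DAC it was −0.55 from its bin, with 7.08% of genes lower. STAU1 after centring was at −0.19 with knockdown in DMSO and −0.33 in DAC, with 30.7% and 17.1% of genes lower.

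**Figure D4:**
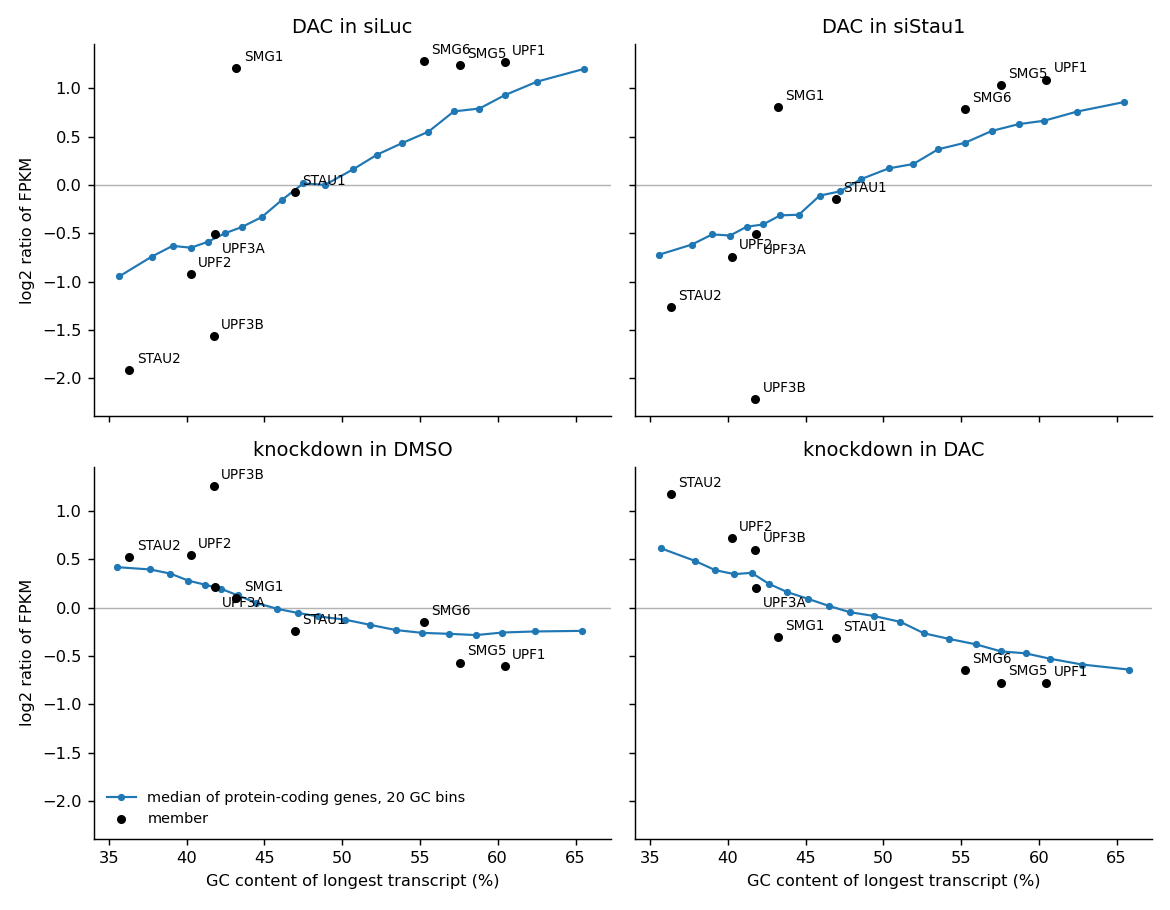
Log2 ratio of FPKM against GC content of the longest transcript (%) for the 9 members, with the line joining medians of protein-coding genes in 20 GC bins, for 4 comparisons. SMG1 lies well above the line in both DAC panels (1.21 and 0.81, where the bin medians are −0.44 and −0.31), and UPF3B lies below it there.

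The other genes of the pathway were read from further lists. Of 8 other NMD factors, 2 were called higher with DAC in siLuc, the helicase DHX34 (4.60 to 11.5 FPKM, log2 ratio 1.30) and the ATPase RUVBL2 (163 to 318 FPKM, 0.96), with q-values of 0.0134 and 0.0383 in the authors' deposited table. RUVBL2, the highest of this list, also rose in siStau1, from 113 to 228 FPKM (log2 ratio 1.01, q-value 0.0372 there). The share of all genes tested that was called higher with DAC was 8.71% in siLuc and 4.56% in siStau1. PNRC2, which links UPF1 to decapping, had the lowest ratios of the list with DAC, −1.07 and −0.94, and the highest with knockdown, 0.52 and 0.65, none of them called. The list median was 0.18 with DAC in siLuc, 0.32 in siStau1, −0.16 with knockdown in DMSO and −0.24 in DAC. DHX34 and RUVBL2 have GC contents of 61.5% and 60.1%, and after centring their ratios in siLuc were 0.23 and 0.03. PNRC2 has 37.4%, and after centring its ratio was −0.32 with DAC in each arm, no longer the lowest of the list. With knockdown it was then 0.13 in DMSO and 0.16 in DAC.

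In the exon junction complex, which marks spliced mRNA and is the anchor of UPF3B, 2 of 7 genes were called with DAC in siLuc, both lower. The share of all genes tested that was called lower there was 4.78%. MAGOHB went from 69.6 to 14.4 FPKM (log2 ratio −2.26, q-value 0.00162 in the authors' deposited table) and its paralog MAGOH from 70.4 to 19.3 FPKM (−1.86, q-value 0.0464 there). They are close paralogs, and how reads were divided between them is uncertain. After centring within GC bins the ratios were −1.32 and −1.53. In siStau1, where the ratios were −1.12 and −0.60 (−0.40 and −0.29 after centring), no gene of the list was called, nor with knockdown in either treatment. MAGOHB was also the highest of the list with knockdown in DAC, at 0.66, but was at 0.05 after centring. EIF4A3, the helicase core of the complex and its highest gene, had 199 FPKM in siLuc DMSO and 155 in siLuc DAC, and 166 and 164 in siStau1. CASC3 had the highest DAC ratio of the list in siLuc, 0.28, and the lowest knockdown ratio in DAC, −0.29. PYM1 had the highest DAC ratio in siStau1, 0.24, and the lowest knockdown ratio in DMSO, −0.84, and RBM8A the highest there, 0.19. After centring, CASC3 was at −0.03 with DAC in siLuc, no longer the highest, and at −0.14 with knockdown in DAC, still the lowest. PYM1 was then at −0.20 with DAC in siStau1, no longer the highest. With knockdown in DMSO, PYM1 was at −0.58 after centring, MAGOHB was the lowest at −0.90, and RBM8A was still the highest at 0.06.

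Among 4 translation termination genes none was called in any of the 4 comparisons. All 4 were lower with DAC in both arms and higher with knockdown in both treatments. The list median with DAC was −0.43 in siLuc and −0.44 in siStau1, and −0.10 and −0.20 after centring within GC bins. With knockdown it was 0.34 in DMSO and 0.17 in DAC, and 0.32 and 0.21 after centring. Not every gene of the list kept its sign after centring. The highest, the poly(A)-binding protein PABPC1, stood at 696 FPKM with DMSO and 411 with DAC in control siRNA cells, and at 874 and 459 in knockdown cells. The release factor ETF1 had the highest knockdown ratio in DAC, 0.58, and PABPC4, another poly(A)-binding protein, the highest in DMSO, 0.44. Of 8 decapping and decay genes, none was called either. EDC4, a decapping scaffold, had the highest DAC ratio, 1.06 in siLuc and 0.95 in siStau1, and LSM1 the lowest in siLuc, −1.21. The exonuclease XRN1 was the lowest in siStau1, −0.81, and the highest with knockdown, 0.56 in DMSO and 0.62 in DAC, while EDC3 was the lowest there, at −0.63 and −0.81. After centring, EDC4 was at 0.27 and 0.32 with DAC, LSM1 at −1.37 in siLuc and XRN1 at −0.19 in siStau1. With knockdown in DMSO and DAC, XRN1 was then at 0.16 and 0.14 and EDC3 at −0.40 and −0.49. These remained the extremes with knockdown in DMSO, and LSM1 remained the lowest with DAC in siLuc. The other ranks changed. DCP1A was then the highest with DAC, at 1.27 in siLuc and 0.91 in siStau1, and LSM1 the lowest in siStau1, at −0.65. With knockdown in DAC, LSM1 was then the highest, at 0.73, and DCP1B the lowest, at −0.73.

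Transcripts described as NMD targets were read beside the factors. Of 10, 3 were called higher with DAC in both arms, the transcription factor ATF3, the stress protein GADD45B and the uridine phosphorylase UPP1. Over all genes tested, 8.71% were called higher in siLuc and 4.56% in siStau1. In each arm, 8 of the 10 had higher values with DAC, called or not. UPP1 stood at 9.58 FPKM with DMSO and 95.9 with DAC in control siRNA cells, and at 6.26 and 38.0 in knockdown cells, with log2 ratios of 3.31 and 2.58 for DAC (q-value 0.00162 for each in the authors' deposited table). GADD45B rose by 2.68 and 2.36 and ATF3 by 1.74 and 2.23. GADD45A, often named beside GADD45B, had ratios of −0.95 and −0.83, not called. The snoRNA host GAS5, the highest gene of the list, had 389 and 436 FPKM in control siRNA cells (DMSO, then DAC) and 272 and 352 in knockdown cells, with no call.

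The list median with DAC was 0.73 in siLuc and 0.59 in siStau1, beside 0.23 and 0.11 over all genes tested, and after centring within GC bins it was 0.70 and 0.76. With knockdown all 10 genes had ratios below 0 in DMSO and 9 of 10 in DAC, with medians of −0.54 and −0.58, beside −0.02 and −0.14 over all genes tested. UPP1 alone of these was called, lower in DAC (log2 ratio −1.33, q-value 0.00293 in the authors' deposited table), and with p-values adjusted within that comparison only, 0 genes were called in it, UPP1 included. In DMSO none was called by Cuffdiff in the authors' deposited table, and the lowest ratio was −1.31 for DDIT3. ATF3, DDIT3, GADD45B and UPP1 are also targets of stress signalling, and the list is not specific to decay.

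Of 9 transcripts described as targets of Staufen-mediated decay, 6 had at least 1 FPKM in every group, and IL7R, GAP43 and PAX3 were at or near 0. With DAC 3 of the 6 genes tested were called in both arms in the authors' deposited table. The share called over all genes tested was 13.5% in siLuc and 7.46% in siStau1. Of the 3 called genes, 2 are named here. The transcription factor JUN rose by 3.41 and 3.58, while PAICS, an enzyme of purine synthesis, fell, with log2 ratios of −1.69 and −1.36. JUN stood at 3.18 FPKM with DMSO and 34.9 with DAC in control siRNA cells, and at 1.45 and 18.4 in knockdown cells. ARF1, the first target described and the highest gene of the list, had 163 and 294 FPKM in control siRNA cells and 133 and 236 in knockdown cells, with no call.

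With knockdown none of this list was called by Cuffdiff in the authors' deposited table, in DMSO or in DAC. PAICS had the highest log2 ratios, 0.33 in DMSO and 0.66 in DAC, and ARF1 gave −0.29 and −0.32. JUN was at −1.08 in DMSO and −0.92 in DAC (q-value 0.0582 with DAC in the authors' deposited table). The list median was −0.66 in DMSO and −0.57 in DAC, and after centring within GC bins −0.42 and −0.09.

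**Figure D5:**
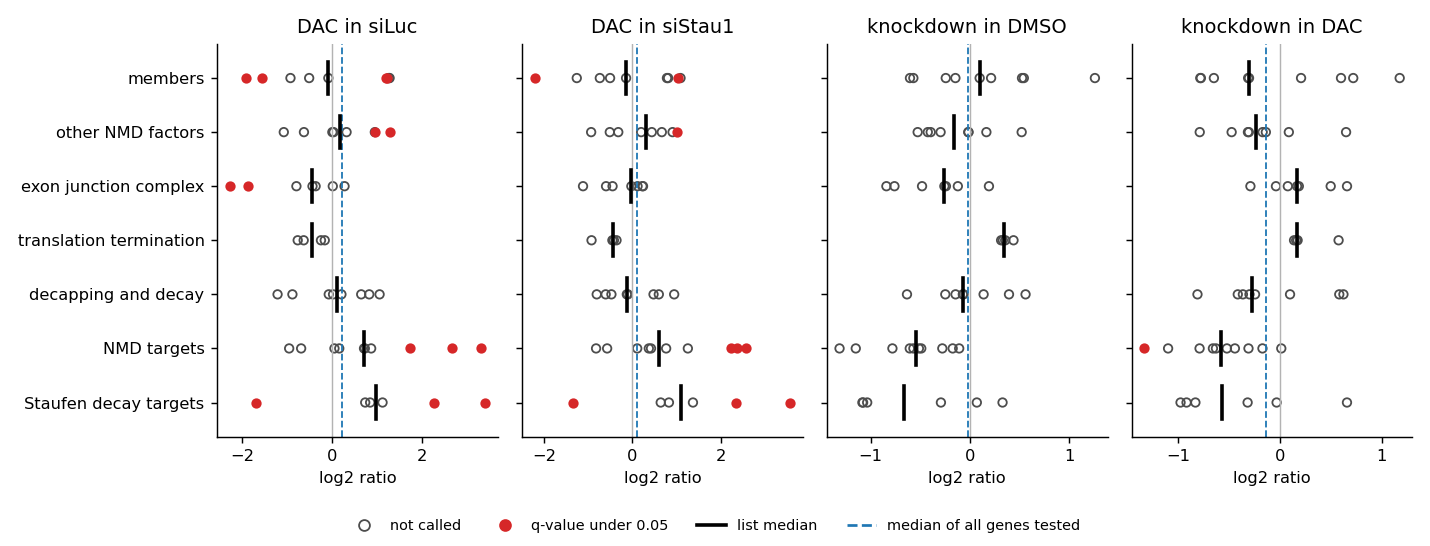
Log2 ratios of FPKM of tested genes in the members' list and 6 lists of related genes, for 4 comparisons, each point a gene, filled where the authors' q-value is under 0.05, with a black bar at the list median and a dashed line at the median of all genes tested. The medians of NMD targets and Staufen decay targets lie above 0 with DAC (PAICS and 2 of 10 NMD targets lie below it in both arms) and below 0 with knockdown, and the members spread to both sides.

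The protein-coding genes with a pattern over the 4 groups most like that of a member were found by the distance between log2 profiles centred on their own mean, among 10685 other genes with at least 1 FPKM in every group. For UPF1 they were ARMC5 (distance 0.023), BORCS6 (0.050) and SMG5 (0.052), so a fellow member was among them, and ARMC5 was also nearest to SMG5. For STAU2 they were TOP2B (0.040), MRPL32 (0.070) and FKBP3 (0.078), with GC contents of 39.7%, 37.5% and 41.8%. For STAU1 they were SLC39A7, GNE and FAM171A1, for SMG1 ZFYVE1, LARGE2 and ASNA1, and for UPF3B C1orf131, IFT81 and ELOVL6. The nearest gene to UPF3B lay at 0.134, further than for any other member compared. With a pseudocount of 1 in place of 0.1, 0 of the 3 genes named stayed among the nearest for SMG1 and SMG5, 1 for UPF1 and STAU2, and 2 for STAU1 and UPF3B. The likeness rests on 4 values per gene and is given as a description.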

How the data were processed

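Total RNA of HCT116 cells was measured in 4 groups of 2 libraries. The authors deposited FPKM values in a table laid out as Cuffdiff writes it, per the file headers, with 1 value per gene and group. bcl2fastq 2.20, HISAT2 2.1.0, Cuffdiff 2.2.1 and hg38 are named in the submitters' processing notes, with no roles. The authors deposited p-values and q-values for 6 pairwise comparisons, and a test score that was not used here. The q-value was recomputed as a Benjamini-Hochberg adjustment over 102180 tests (largest gap 5.3e-07). Count tests were planned but the table has no library-level values, so calls are those of the authors. Groups were taken from the labels.

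Log2 ratios were computed with a pseudocount of 0.1, which understates changes of low genes, in Python 3.11.15 with pandas 2.3.3 and numpy 2.4.6. GENCODE release 29 gave positions, GC content (longest transcript) and 20 GC bins of protein-coding genes at 1 FPKM or more in both groups; the centring was tested on simulated data. The members and lists were chosen with earlier results of these data known. Named genes are all members and, per list, those called, the highest by mean FPKM, and the extremes of each comparison. The 3 tables of J2-bound repeats name no genes and were not analysed here. The values of 1 gene of the Staufen decay targets are not reported here; it is included in the counts and medians of that list.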

Additional observations from a re-analysis of the deposited data

How the results depend on the processing

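No paired analysis was possible because the table holds 1 value per group and none per library; for the same reason leaving out each replicate was not run. With a q-value limit of 0.01, 1 member was called with DAC in siLuc (4 at 0.05) and 1 in siStau1 (2 at 0.05). At an unadjusted p under 0.05, 6 members passed with DAC in siLuc (28.9% of all genes tested), 5 with DAC in siStau1 (19%), 1 with knockdown in DMSO (4.3%), 3 with knockdown in DAC (6.95%) and 2 in the combined comparison (13.6%). Adjusting within each comparison only called the same number of members in every comparison. Over all genes, a limit of 0.01 gave 1395 calls with DAC in siLuc (2360 at 0.05), 667 with DAC in siStau1 (1266), 55 with knockdown in DMSO (127) and 34 in DAC (156). Adjusting within the comparison gave 33 with knockdown in DMSO and 0 in DAC. Genes at 1 FPKM or more in both groups gave 807 calls with DAC in siStau1 and 71 with knockdown in DMSO. The members' median log2 ratio with DAC in siLuc went from −0.08 to 0.085 when centred within GC bins. With knockdown in DAC it went from −0.30 to −0.16 with equal protein-coding sums and to −0.19 when centred on the median of genes with at least 1 FPKM. The alternatives of the combined comparison and of the difference between arms were chosen after seeing the data. The median difference between arms went from −0.18 to −0.0043 when centred within GC bins. No called member changed direction. Of 216 recomputed member ratios, 4 changed sign, all when centred within GC bins: UPF3A with DAC in siLuc and with knockdown in DAC, and SMG1 and SMG6 with knockdown in DMSO, none of them called. The unknown depth and the single value per group limit every ratio.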
